A study of Mus musculus with 6 samples.

Results

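The genes described here carry glucose from the cell surface to pyruvate and lactate and decide whether pyruvate enters the mitochondrion. They are 32 genes taken for their place in the pathway, with no rule on measured values, and each was represented by the probe set of highest mean intensity over the 6 arrays among those that the platform annotation assigns to that gene alone. Of the 32 genes, 28 were fitted, Gapdh was present through 3 control probe sets that stayed outside the fit, and Gpi1, Eno1 and Pfkfb1 had no probe set under their own single symbol. The array represented 18193 genes in all. The arrays held RNA of mouse ovarian granulosa cells, 2 per group, from mice of mixed FVB and C57BL/6 background. The first group was Foxo1/3 dKO at 2 months and the second Foxo1/3 dKO at day 25, both with the genotype Foxo1 f/-, Foxo3 f/- and Amhr2-cre, and the third was wild type at day 25. Amhr2-cre places the recombinase under a promoter active in granulosa cells, and the labels name no Cre for wild type. No 2-month wild-type array was analysed here, so at 2 months genotype and age cannot be told apart, and whether cells of several mice were pooled is not given in the sources used here.

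Glycolysis splits glucose into pyruvate, which lactate dehydrogenase can turn into lactate, which the pyruvate dehydrogenase complex can commit to the citric acid cycle, or which pyruvate carboxylase can turn into oxaloacetate. In the follicle the mouse oocyte uses glucose poorly and depends on pyruvate handed over by the granulosa and cumulus cells around it, and oocyte signals in turn promote glycolysis in cumulus cells. FOXO factors, which insulin and PI3K signalling hold inactive, are known in liver and muscle to activate Pdk4, the kinase that shuts off pyruvate dehydrogenase.

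Start-site sequences are shown first for Pdk4, the member farthest from wild type, for the lactate transporter Slc16a1, and for 3 enzymes that varied together, because the factors known to drive these genes read short motifs there. They are RefSeq windows of GRCm38.p6 from 250 bases before to 50 after an annotated start, printed in the direction of transcription. Capitals mark the hypoxia response cores ACGTG and GCGTG on either strand, and CACGTG, the E-box read by MYC, holds ACGTG on both strands. The FOXO heptamer GTAAACA was searched as well and is not in these windows. Ldha and Pkm each have a further annotated start whose window is not shown. That window holds no ACGTG for either gene, with 2 GCGTG for Ldha and no GCGTG for Pkm. The 3 enzymes are among 8 with a shared order of replicates, described below. Of the others, Tpi1 holds neither core in its window, Pfkl and Pfkp hold GCGTG but no ACGTG, and Aldoa and Pgam1 hold ACGTG.
Pdk4, chr6:5496229-5496528, minus strand: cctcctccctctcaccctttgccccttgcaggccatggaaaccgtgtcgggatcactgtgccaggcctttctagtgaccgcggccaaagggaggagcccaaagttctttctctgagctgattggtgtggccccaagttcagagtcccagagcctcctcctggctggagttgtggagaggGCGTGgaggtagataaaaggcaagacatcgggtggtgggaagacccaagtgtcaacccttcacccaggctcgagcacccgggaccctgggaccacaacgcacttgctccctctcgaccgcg
Slc16a1, chr3:104638414-104638713, plus strand: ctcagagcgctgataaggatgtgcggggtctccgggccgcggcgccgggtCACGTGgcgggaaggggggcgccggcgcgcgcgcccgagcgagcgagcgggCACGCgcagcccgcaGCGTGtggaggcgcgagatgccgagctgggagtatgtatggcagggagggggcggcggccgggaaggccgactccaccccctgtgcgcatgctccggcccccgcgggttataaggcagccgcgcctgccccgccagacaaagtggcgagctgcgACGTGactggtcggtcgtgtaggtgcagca
Ldha, chr7:46845554-46845853, plus strand: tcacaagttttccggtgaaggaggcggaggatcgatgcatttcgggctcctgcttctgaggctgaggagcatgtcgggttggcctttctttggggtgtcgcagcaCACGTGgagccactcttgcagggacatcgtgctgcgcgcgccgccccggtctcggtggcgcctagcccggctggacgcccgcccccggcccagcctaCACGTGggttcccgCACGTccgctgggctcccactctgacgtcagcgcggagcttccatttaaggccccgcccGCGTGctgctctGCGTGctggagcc
Pgk1, chrX:106186850-106187149, plus strand: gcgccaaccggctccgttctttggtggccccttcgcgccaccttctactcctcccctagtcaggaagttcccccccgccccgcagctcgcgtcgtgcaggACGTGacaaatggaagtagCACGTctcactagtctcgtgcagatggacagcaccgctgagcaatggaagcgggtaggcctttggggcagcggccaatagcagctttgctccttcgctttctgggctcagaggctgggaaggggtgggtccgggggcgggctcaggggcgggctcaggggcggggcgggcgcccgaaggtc
Pkm, chr9:59656977-59657276, plus strand: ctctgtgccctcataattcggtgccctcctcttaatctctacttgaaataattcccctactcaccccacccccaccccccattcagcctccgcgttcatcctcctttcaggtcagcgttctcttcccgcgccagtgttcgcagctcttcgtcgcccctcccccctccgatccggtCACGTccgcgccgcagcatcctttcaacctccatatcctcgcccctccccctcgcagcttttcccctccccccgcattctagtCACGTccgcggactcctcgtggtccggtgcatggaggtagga

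Of the 32 members, 31 matched the table of start windows, the exception being Slc2a3. ACGTG lay in a window of 19 of these 31 genes (61.3%), against 21.8% of the 27025 genes in the table, and GCGTG in 21 (67.7%), against 35.2%. CACGTG was found for 7 members (22.6%), against 8.09% of all genes. Members had more windows per gene, 51 for 31 genes against 32851 for 27025, and per window the E-box share was 13.7% against 7.15%. The window shares of the hypoxia cores in the order named above were 45.1% against 19.6% and 52.9% against 32.4%. GTAAACA was found for 1 member, Aldoc (3.23%), against 4.05% of all genes. The Pdk4 window held 1 GCGTG, and the Ldha window shown held 2 copies of CACGTG, 1 further ACGTG and 2 of GCGTG. A match is a run of letters and not a site of binding, and windows of different base composition hold such runs at different rates.

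The arrays were alike in overall intensity, with medians of 73 or 74, and Foxo1 set the knockout apart. Foxo1 intensity was 126 and 343 in dKO at 2 months and 904 and 2291 in dKO at day 25, against 10319 and 7666 in wild type. Foxo3 intensity was 2484 and 1872 in dKO at 2 months and 2539 and 3279 in dKO at day 25, against 1632 and 1342 in wild type. Whether its probes lie in the deleted part is not given in the sources used here, so Foxo1 alone checks the labels. The granulosa marker Inha lay between 26038 and 27499, and 9 of the 10 granulosa markers were at 993 or above on every array. The exception was Kitl, the KIT ligand, at 240 and 2325 in dKO at 2 months and 3863 and 623 in dKO at day 25, against 3801 and 322 in wild type. dKO 2-month replicate 1 stood apart, with a correlation of at most 0.978 with any other array across probe sets, and the summed intensity of 14 oocyte markers was 6583 there against 37593 on the other array of its group. The oocyte sum was 47701 to 71188 in dKO at day 25 against 20217 to 33949 in wild type, and 14 of 14 oocyte markers had higher means in that dKO group. Leukocyte markers summed to 4976 to 15242 in dKO at 2 months and 4417 to 7823 in dKO at day 25, against 1599 to 3235 in wild type. Endothelial markers summed to 1850 to 3739 and 1186 to 1766 in the same dKO groups, against 925 to 1141 in wild type, and stromal markers to 27024 to 50488 and 30311 to 37235, against 17389 to 25088. None of these markers was at 0, the leukocyte integrin Itgam was between 12 and 16 on all arrays, and the part of these cells in the values below was not tested. Fewer cells of a type and less RNA per cell cannot be told apart in such samples.

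No member of the pathway passed limma's test after Benjamini-Hochberg adjustment over all 45037 probe sets in any comparison, and neither did any other probe set, so 0% of genes were called in each. Setting the genotypes side by side at 1 age, day 25, left 2 members higher and 2 lower in dKO with an unadjusted p below 0.05. Over all genes 4.89% were higher and 3.44% lower by that rule. The members above it were the glucose transporter Slc2a1 and the hexokinase Hk1, and those below were the monocarboxylate transporter Slc16a1 and the kinase Pdk4. The groups did not overlap for 8 members higher in dKO (28.6%) and 3 lower (10.7%), against 26.4% and 19.5% of all genes. The median log2 difference of the 28 members was 0.02, against 0.03 for all genes. Leaving out wild-type replicate 1 gave 1 higher and 1 lower and a median of -0.13, and leaving out wild-type replicate 2 gave 3 and 1 and a median of 0.17. Without dKO day 25 replicate 1 the counts were 0 and 1, without replicate 2 of that group they were 1 and 1 with a median of 0.11, and without either 2-month array they were 3 and 2.

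The comparison of dKO at 2 months with wild type at day 25 left 6 members higher and 2 lower by the same unadjusted rule, where 9.54% of all genes were higher and 5.38% lower. The 6 were Slc2a1, Hk1, Hk2, Pfkfb4, Pdha1 and Pcx, and the 2 were Pfkfb3 and Pdk4. The groups did not overlap for 9 members higher (32.1%) and 4 lower (14.3%), against 26.6% and 17.3% of all genes. The median over the members was -0.05, against 0.04 for all genes. Both comparisons use the same wild-type arrays, so their likeness is in part built in. Dropping wild-type replicate 1 left 1 higher and 1 lower with a median of -0.18, and dropping its partner left 2 and 1 with a median of 0.15. Without dKO 2-month replicate 1 they were 5 and 0 with a median of 0.04, and without replicate 2 of that group 7 and 4.

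Between separate dKO samples of the 2 ages, 1 member was higher at 2 months and 0 lower at an unadjusted p under 0.05, where 3.73% of all genes were higher and 2.91% lower. The 1 member was Pcx. The groups did not overlap for 6 members higher at 2 months (21.4%) and 2 lower (7.14%), against 19.7% and 17% of all genes. The median was 0.01, against 0.02 for all genes. Pcx was no longer under that p without either wild-type array or without dKO day 25 replicate 1, which left 0 members higher. Without dKO 2-month replicate 1 the counts were 2 and 0 with a median of 0.04, and without replicate 2 of that group 6 and 2 with a median of -0.03. Dropping dKO day 25 replicate 1 put the median at 0.13, and dropping its partner put it at -0.08.

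**Figure D1:**
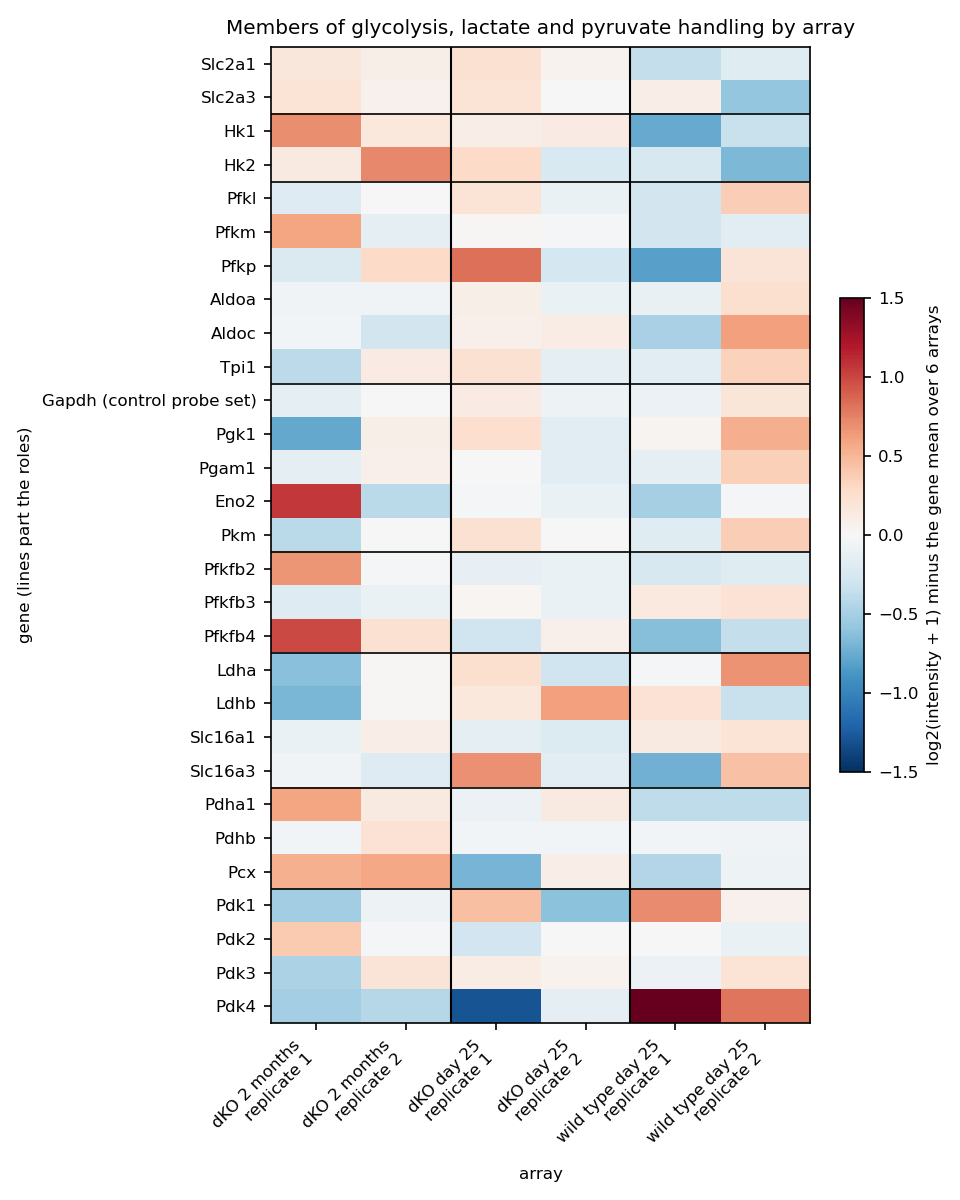
Each row is a member and each column an array, and the colour gives log2(intensity + 1) minus the gene's mean over the 6 arrays, with lines between roles and between groups. Pdk4 is high on both wild-type arrays, Slc2a1, Hk1 and Hk2 are low there, and most enzymes from Pfkl to Pkm vary between the replicates of a group.

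**Figure D2:**
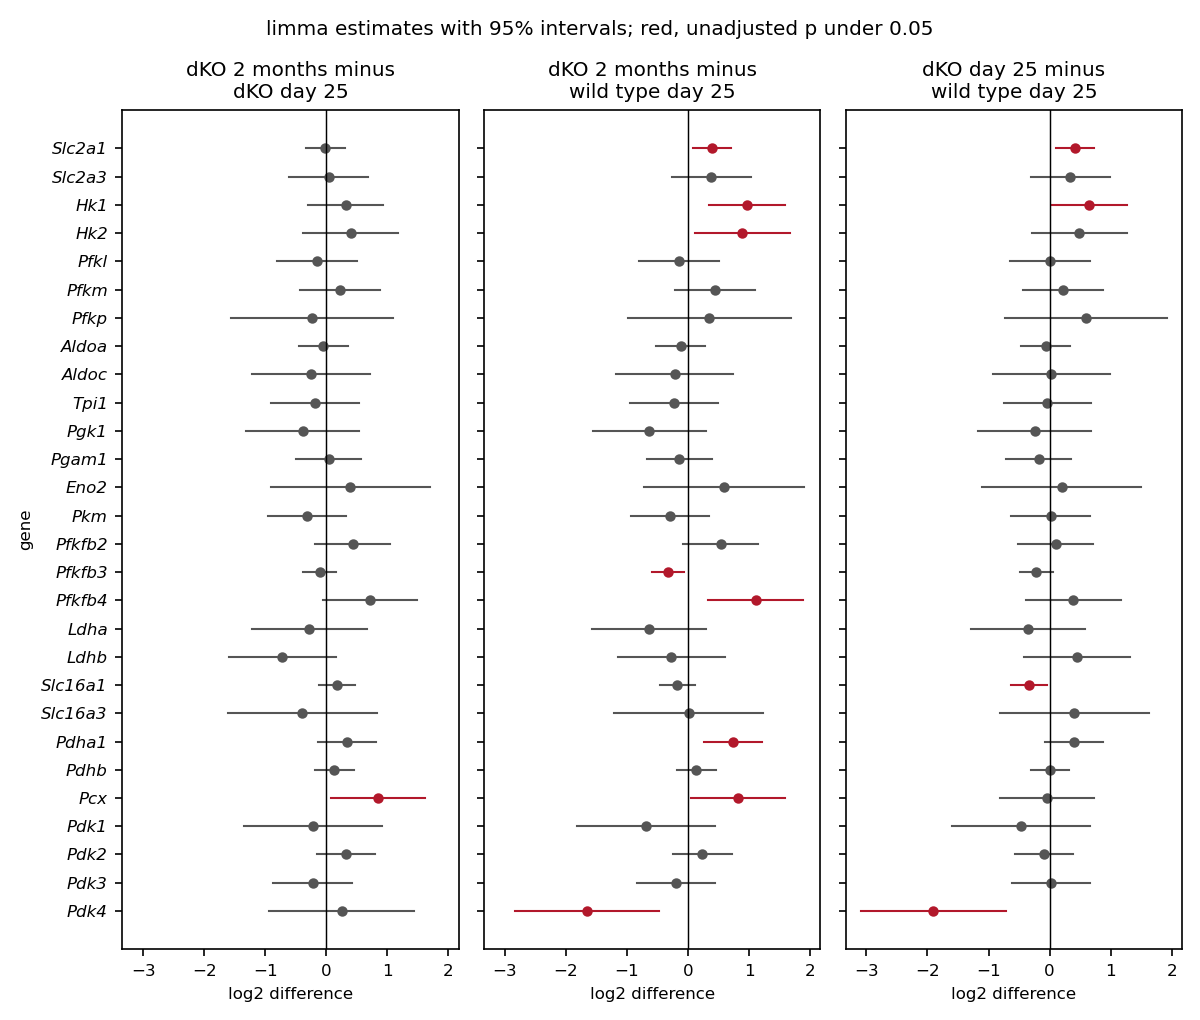
Points are limma's log2 differences of the 28 fitted members and bars their 95% intervals, with 1 panel per comparison and red for an unadjusted p under 0.05. Pdk4 lies farthest from 0, at -1.65 and -1.90 against wild type, and no member passes after adjustment.

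Pyruvate dehydrogenase kinases phosphorylate and switch off the pyruvate dehydrogenase complex, and Pdk4, the isoform of fasting, differed most among the members. Pdk4 intensity was 201 and 214 in dKO at 2 months and 116 and 261 in dKO at day 25, against 853 and 502 in wild type. Every dKO value was under both wild-type values, and the wild-type pair was itself far apart. The day 25 log2 difference from wild type was -1.90 ± 0.46 (SE), a 3.74-fold lower level, with adjusted p = 0.502 in limma. The 2-month difference was -1.65 ± 0.46, 3.14-fold lower, with adjusted p = 0.309. Without single arrays the day 25 value ran between -2.49 and -1.32 and the 2-month value between -2.03 and -1.27. The replicate with more Pdk4 was also the one with more oocyte marker signal in each group, while the dKO arrays at day 25 had both the lower Pdk4 values and the higher oocyte sums. Foxo1 had that order of replicates too. It was 126 and 343 in dKO at 2 months and 904 and 2291 in dKO at day 25, against 10319 and 7666 in wild type. Of all genes 17.6% had the order, and the part of oocytes in the Pdk4 values was not tested. The Pdk4 start window, shown above, holds no GTAAACA, a run found for only 4.05% of all genes. Sequence farther from the start was not searched, and control of Pdk4 by FOXO was not tested.

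The other kinases showed no such gap. Pdk1, the isoform that hypoxia raises, was 406 and 555 in dKO at 2 months and 801 and 380 in dKO at day 25, against 955 and 611 in wild type. The 2-month arrays lay below wild type and the day 25 arrays overlapped it, and 1 of the other 3 Pdk1 probe sets was opposite in sign at day 25. Pdk2 stayed between 121 and 193 on all arrays and Pdk3 between 372 and 593, and both overlapped between dKO and wild type at each age.

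Of the subunits of the complex that these kinases act on, Pdha1 had higher dKO values and Pdhb nearly level ones. Pdha1, the catalytic subunit that the kinases phosphorylate, was 1357 and 989 in dKO at 2 months and 849 and 988 in dKO at day 25, against 690 and 694 in wild type. Every dKO array lay above both wild-type arrays. The log2 difference at 2 months was 0.74 ± 0.18 (SE), adjusted p = 0.283 in limma, and at day 25 it was 0.40 ± 0.18. Its dimmer probe set, between 241 and 308, did not show this, so the mean of both gave 0.37 at 2 months. Pdhb, the partner subunit, was 2821 and 3394 in dKO at 2 months and 2834 and 2824 in dKO at day 25, against 2819 and 2804 in wild type, a difference of 0.14 ± 0.12 and 0.0090 ± 0.12 on the log2 scale. The dim second Pdhb probe set, between 58 and 103, was opposite in sign at both ages.

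Pyruvate carboxylase, which feeds oxaloacetate to the citric acid cycle, was the 1 member with an unadjusted p under 0.05 between the dKO ages. Pcx intensity was 789 and 814 in dKO at 2 months and 335 and 586 in dKO at day 25, against 402 and 515 in wild type. Both 2-month arrays lay above all 4 others, and the day 25 groups overlapped. The log2 difference was 0.85 ± 0.30 (SE) between the dKO ages, a 1.81-fold higher level at 2 months, with adjusted p = 0.712 in limma. Against wild type it was 0.82 ± 0.30, with adjusted p = 0.366. Without dKO day 25 replicate 1 the difference between the ages was 0.45, and without any other 1 array it was 0.83 to 1.26. Summed theca and interstitial markers were 32630 to 41193 in dKO at 2 months, against 15629 to 27285 in dKO at day 25 and 20677 to 22804 in wild type. Only Cyp17a1 and Star, 2 of the 6 measured, lay above all dKO day 25 values, and Cyp17a1 alone was 12804 and 15028 in dKO at 2 months and 389 and 5073 in dKO at day 25, against 1275 and 1509 in wild type. Luteal markers summed to 13862 to 15179 in dKO at 2 months, against 4529 to 6891 in dKO at day 25 and 6229 to 6502 in wild type, with 4 of 6 above all dKO day 25 values. The part of these cells in the Pcx result was not tested.

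**Figure D3:**
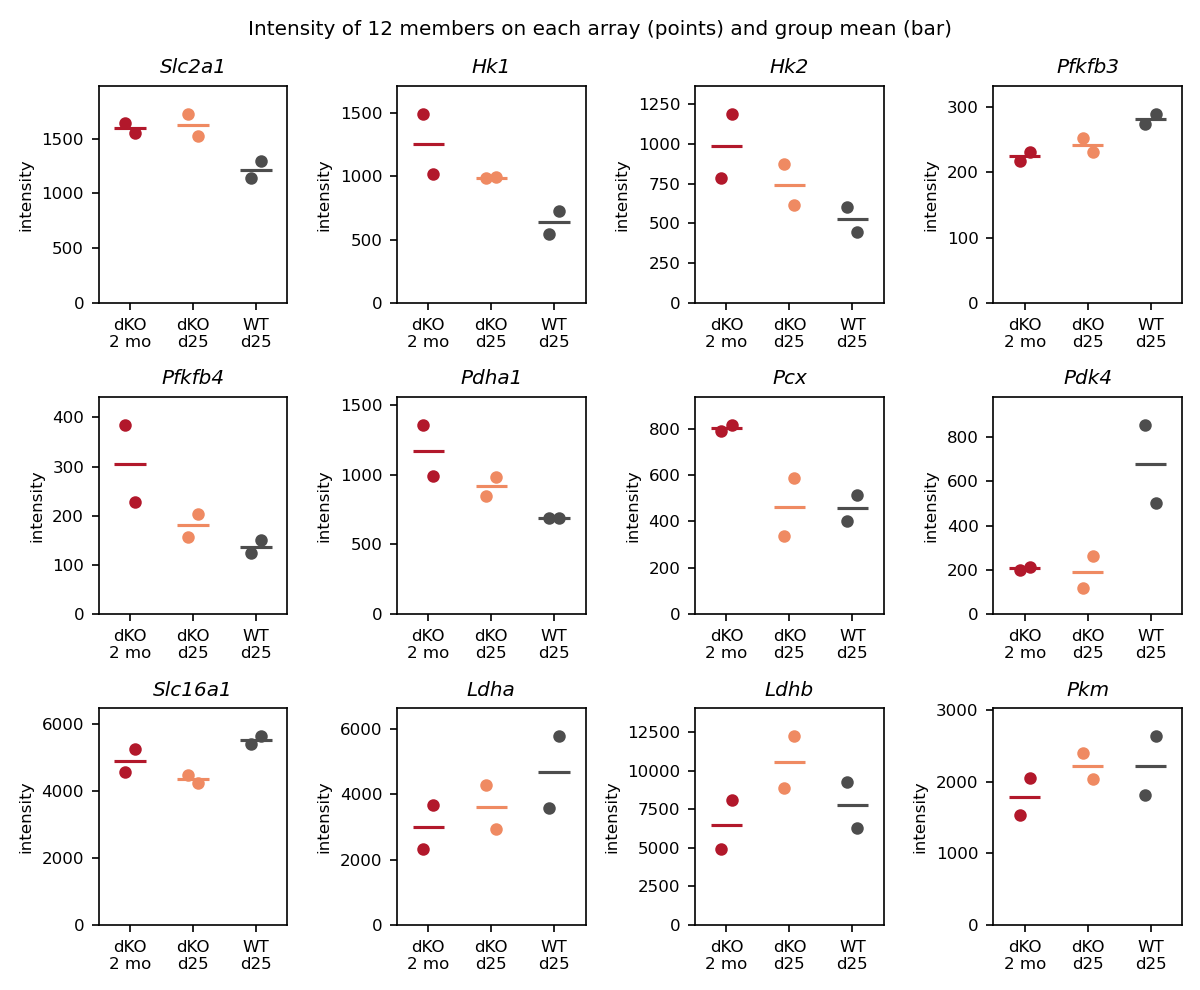
Points are the intensity of 12 members on each array and bars the group means, on linear axes that start at 0. Pdk4 and Slc16a1 have lower dKO values, Slc2a1, Hk1, Hk2 and Pdha1 higher ones, Pcx is high in dKO at 2 months alone, and Ldha, Ldhb and Pkm overlap between dKO and wild type.

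The glucose carrier Slc2a1 and the hexokinases Hk1 and Hk2 had higher values on every dKO array than on either wild-type array. Slc2a1 encodes GLUT1, the basal glucose carrier, and was 1643 and 1555 in dKO at 2 months and 1721 and 1522 in dKO at day 25, against 1140 and 1293 in wild type. The 4 dKO arrays lay close together and above wild type. The log2 difference was 0.40 ± 0.12 (SE) at 2 months and 0.41 ± 0.12 at day 25, a 1.32-fold and 1.33-fold higher level, with adjusted p = 0.335 and adjusted p = 0.555 in limma. Its other 2 probe sets had the same sign against wild type, but the dimmest of the Slc2a1 probe sets overlapped wild type at both ages. That probe set was 415 and 447 in dKO at 2 months and 509 and 451 in dKO at day 25, against 336 and 479 in wild type. Slc2a3, the high-affinity carrier GLUT3, was between 111 and 193 on all arrays and overlapped between dKO and wild type.

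Hexokinases trap glucose as glucose 6-phosphate. Hk1, the widely expressed form, was 1489 and 1021 in dKO at 2 months and 984 and 993 in dKO at day 25, against 543 and 728 in wild type. On this probe set the order of the groups was without overlap, with dKO at 2 months at the top. Against wild type, Hk1 differed by 0.97 ± 0.24 (SE) on the log2 scale at 2 months, adjusted p = 0.28 in limma, and by 0.65 ± 0.24 at day 25, adjusted p = 0.599. Its dimmer probe set was 76 and 44 in dKO at 2 months and 45 and 48 in dKO at day 25, against 35 and 43 in wild type. There the dKO ages overlapped, and the mean of both probe sets gave 0.45 at day 25. Hk2, the insulin-responsive form, was 786 and 1185 in dKO at 2 months and 873 and 613 in dKO at day 25, against 604 and 449 in wild type. Its 2-month difference was 0.89 ± 0.30, adjusted p = 0.353, or 0.59 without dKO 2-month replicate 2, and its day 25 arrays cleared wild type only narrowly. Leukocyte sums were higher in dKO on the same arrays, and the part of these cells in the hexokinase values was not tested. In dKO at 2 months and in wild type the replicate with more leukocyte signal had more Hk1 but less Hk2. In dKO at day 25 it had more Hk2 and nearly level Hk1. Hk3, the hexokinase of myeloid cells, was 168 and 116 in dKO at 2 months and 114 and 89 in dKO at day 25, against 86 and 102 in wild type.

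The bifunctional PFKFB enzymes set the level of fructose 2,6-bisphosphate, which switches phosphofructokinase on. Pfkfb4 intensity was 384 and 227 in dKO at 2 months and 157 and 204 in dKO at day 25, against 124 and 150 in wild type. The dKO arrays lay above wild type at both ages, and 2-month replicate 1 was far above its partner. The 2-month log2 difference was 1.11 ± 0.30 (SE), a 2.16-fold higher level, with adjusted p = 0.303 in limma, and it was 0.73 without that replicate. Pfkfb3, the form with the strongest kinase activity, was 217 and 232 in dKO at 2 months and 253 and 232 in dKO at day 25, against 274 and 289 in wild type. These were small differences, -0.33 ± 0.10 on the log2 scale at 2 months, and the dimmer Pfkfb3 probe set, at 30 to 34 on all arrays, was opposite in sign. Pfkfb2 was 370 and 230 in dKO at 2 months and 213 and 218 in dKO at day 25, against 197 and 205 in wild type. Its dimmest probe set, between 9 and 11, was opposite in sign at both ages.

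The enzymes from phosphofructokinase to lactate dehydrogenase did not separate the groups. These were 11 members, Pfkl, Pfkm, Pfkp, Aldoa, Aldoc, Tpi1, Pgk1, Pgam1, Eno2, Pkm and Ldha, and none had an unadjusted p under 0.05 in any comparison. In each comparison the groups overlapped for 10 of the 11, the exceptions being Pfkm against wild type at both ages and Aldoc between the dKO ages. Of all genes, 26.4% were higher and 19.5% lower without overlap at day 25, 26.6% and 17.3% at 2 months, and 19.7% and 17% between the dKO ages. The unadjusted rule took 4.89% and 3.44%, 9.54% and 5.38%, and 3.73% and 2.91% of all genes in the same order. No test set the 11 enzymes apart from these shares. Their median log2 difference from wild type was 4.29e-04 in dKO at day 25 and -0.15 in dKO at 2 months. Aldoa, the main aldolase, was 7376 and 7391 in dKO at 2 months and 8155 and 7168 in dKO at day 25, against 7078 and 9038 in wild type. Pkm, pyruvate kinase, was 1538 and 2043 in dKO at 2 months and 2396 and 2033 in dKO at day 25, against 1807 and 2631 in wild type. The wild-type pair spanned all dKO values of Aldoa and all but 1 of Pkm. Pgk1, phosphoglycerate kinase, was 2126 and 3863 in dKO at 2 months and 4320 and 3250 in dKO at day 25, against 3740 and 5273 in wild type. Pfkp, the platelet form of phosphofructokinase, was 727 and 1033 in dKO at 2 months and 1492 and 701 in dKO at day 25, against 478 and 963 in wild type, and the 95% interval of its day 25 log2 difference, -0.74 to 1.92, leaves room for large changes either way. A dim Pfkp probe set, between 25 and 31, was opposite in sign against wild type at both ages. Pfkm, the muscle form, was 939 and 566 in dKO at 2 months and 632 and 615 in dKO at day 25, against 514 and 556 in wild type, so its dKO values were higher by a narrow gap. Of the other enzymes, the liver form Pfkl lay between 789 and 1233 over the 6 arrays, triosephosphate isomerase Tpi1 between 3929 and 6576, phosphoglycerate mutase Pgam1 between 2248 and 3220 and the aldolase Aldoc between 197 and 423. Eno2, the neuronal enolase, was dim, between 15 and 46.

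What these enzymes shared was the order of the replicates. The 8 described next, counted after their values were seen, had more signal on replicate 2 in dKO at 2 months, on replicate 1 in dKO at day 25 and on replicate 2 in wild type. They were Pfkl, Pfkp, Aldoa, Tpi1, Pgk1, Pgam1, Pkm and Ldha, and Slc16a1, Pfkfb3 and Pdk3 brought the members with that order to 11 of 28 (39.3%), against 12.1% of all genes. Wild-type replicate 2 was the highest of the 6 arrays for 8 of the 11 enzymes, where it was highest for 13.7% of all genes. The median gap between replicates of the 11 enzymes was 0.51 in dKO at 2 months, 0.24 in dKO at day 25 and 0.52 in wild type on the log2 scale, against 0.25, 0.15 and 0.14 for all genes. The median gap between dKO and wild-type means at day 25 was 0.18 for the enzymes, against 0.15 for all genes. Means of 2 arrays vary less than single arrays, so this gap cannot be set directly against the gap between replicates. Gapdh, which was outside the fit, had the same order, with 11654 and 13021 in dKO at 2 months and 14058 and 12266 in dKO at day 25, against 12229 and 14733 in wild type on its brightest control probe set. The ratio of its 3' to its 5' control probe set, a sign of RNA quality, lay between 0.980 and 1.06 on all arrays. Of 15 hypoxia response genes outside glycolysis, 4 had this order of replicates.

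**Figure D4:**
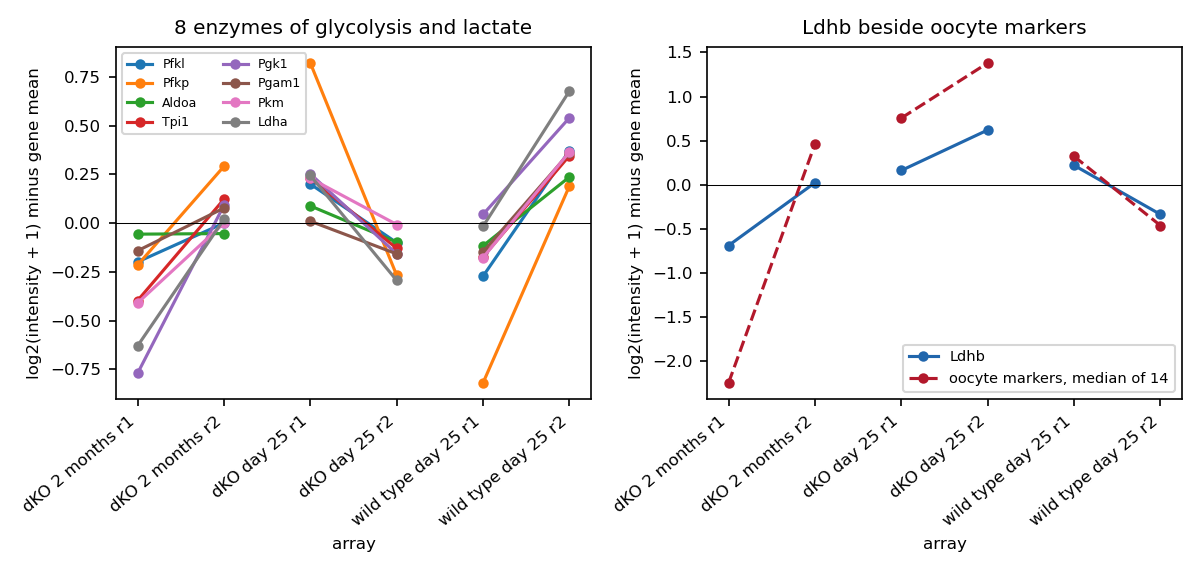
Both panels show log2(intensity + 1) minus the gene mean on each array, with a line joining the 2 replicates of a group. In the left panel 8 enzymes tilt together in each group, and in the right panel Ldhb tilts with the median of 14 oocyte markers.

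Lactate dehydrogenase A, which favours lactate, and B, which favours pyruvate, differed in their pattern over the arrays. Ldha intensity was 2333 and 3657 in dKO at 2 months and 4276 and 2944 in dKO at day 25, against 3568 and 5772 in wild type. Ldha differed from wild type by -0.64 ± 0.36 (SE) on the log2 scale at 2 months and -0.35 ± 0.36 at day 25, with overlap at both ages. The 2-month value was -0.29 without wild-type replicate 2, -0.31 without dKO 2-month replicate 1, -0.98 without wild-type replicate 1 and -0.96 without dKO 2-month replicate 2. At day 25, dropping wild-type replicate 2 gave -0.0081 and dropping wild-type replicate 1 gave -0.70, while dropping replicate 2 or replicate 1 of that dKO group gave -0.086 or -0.62. Ldhb was 4943 and 8097 in dKO at 2 months and 8914 and 12247 in dKO at day 25, against 9280 and 6311 in wild type. Its log2 difference was -0.72 ± 0.34 between the dKO ages, adjusted p = 0.712 in limma, with no overlap, and its 4 probe sets ran alike. That value was -0.37 without dKO 2-month replicate 1 and ran down to -1.08 without replicate 2 of that group. Ldhb is the lactate dehydrogenase of the mouse oocyte. Its higher replicate was the one with more oocyte marker signal in all 3 groups, as for 13 of the 14 oocyte markers. Of the members only Ldhb and Pdk4 had that order, 7.14% against 17.6% of all genes. The oocyte part in the Ldhb values was not tested.

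Monocarboxylate transporters move lactate and pyruvate across the cell membrane. Slc16a1, or MCT1, was 4561 and 5257 in dKO at 2 months and 4481 and 4241 in dKO at day 25, against 5399 and 5632 in wild type. All dKO arrays lay below wild type, most clearly at day 25. The day 25 log2 difference was -0.34 ± 0.11 (SE), a 1.26-fold lower level, with adjusted p = 0.577 in limma, and its dim second probe set had the same sign. Slc16a3, or MCT4, the lactate exporter of glycolytic cells, was dim, at 75 and 68 in dKO at 2 months and 126 and 70 in dKO at day 25, against 47 and 106 in wild type.

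Other genes of glucose, lactate and pyruvate transport differed in both directions. Of 16 measured, 4 were higher and 1 lower in dKO at 2 months against wild type by the unadjusted rule, and 3 and 1 in dKO at day 25, with a median log2 difference of 0.10 and 0.07. Over all genes 9.54% were higher and 5.38% lower at 2 months, and 4.89% and 3.44% at day 25, and counts this small are not set apart from those shares by any test. Slc2a8, the intracellular glucose carrier GLUT8, was 555 and 525 in dKO at 2 months and 432 and 421 in dKO at day 25, against 335 and 355 in wild type. The 3 groups were in order with no overlap, and the 2-month log2 difference was 0.64 ± 0.09 (SE), adjusted p = 0.177 in limma. Bsg and Emb encode basigin and embigin, chaperones that bring monocarboxylate transporters to the membrane, and they differed in opposite directions. Bsg was 8346 and 7480 in dKO at 2 months and 8457 and 7018 in dKO at day 25, against 5377 and 6287 in wild type. Emb was 173 and 133 in dKO at 2 months and 109 and 130 in dKO at day 25, against 231 and 215 in wild type, a day 25 log2 difference of -0.90 ± 0.17, adjusted p = 0.474. Ldhd, a mitochondrial D-lactate dehydrogenase, was 150 and 181 in dKO at 2 months and 213 and 197 in dKO at day 25, against 119 and 109 in wild type.

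**Figure D5:**
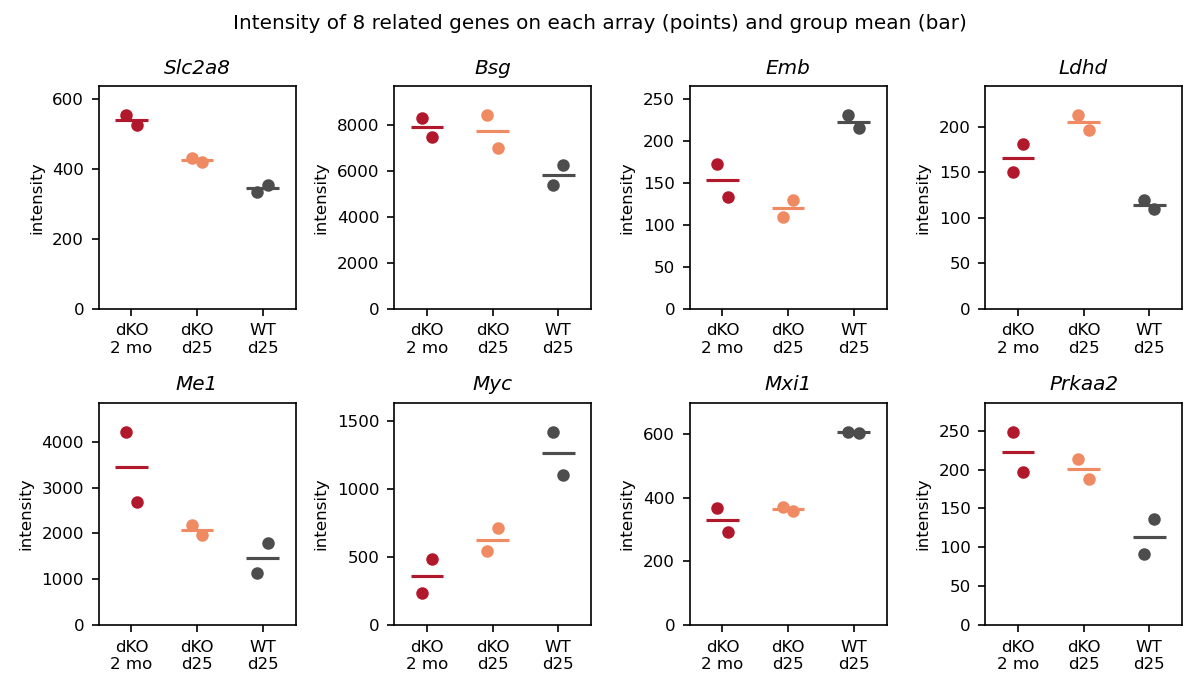
Points are the intensity of 8 related genes on each array and bars the group means, on linear axes that start at 0. Slc2a8, Bsg, Ldhd and Prkaa2 are higher on every dKO array than on either wild-type array, Me1 likewise, and Emb, Myc and Mxi1 lower.

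Enzymes beside and beyond glycolysis are given next. By the unadjusted rule 9.54% of all genes were higher and 5.38% lower at 2 months against wild type. The shares were 4.89% and 3.44% at day 25, and 3.73% and 2.91% between the dKO ages. Among 15 other glycolysis genes, 1 was higher and 1 lower in dKO at 2 months against wild type by that rule, namely the muscle enolase Eno3 and the ADP-dependent glucokinase Adpgk, and 0 were in either direction at day 25. Of 17 further genes of pyruvate fate, 2 were higher and 1 lower at 2 months against wild type. Me1, the cytosolic malic enzyme that turns malate into pyruvate, was 4222 and 2688 in dKO at 2 months and 2191 and 1975 in dKO at day 25, against 1137 and 1788 in wild type. Pdp2, a phosphatase that reactivates pyruvate dehydrogenase, was 859 and 469 in dKO at 2 months and 331 and 383 in dKO at day 25, against 283 and 352 in wild type. None of 17 citric acid cycle genes and none of 7 pentose phosphate genes had an unadjusted p under 0.05 in any comparison. The cycle genes had medians of -0.03 at both ages against wild type, and the pentose phosphate genes -0.33 at 2 months and -0.17 at day 25. Of the 7 pentose phosphate genes, 5 at 2 months and 3 at day 25 lay below wild type without overlap, and 0 above it. Of all genes, 17.3% and 19.5% lay below in that way. No gene of these lists passed after adjustment in limma.

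Among 21 regulators of the pathway, 3 were higher and 2 lower in dKO at 2 months against wild type by that rule, and 2 and 0 in dKO at day 25. Over all genes 9.54% were higher and 5.38% lower at 2 months, and 4.89% and 3.44% at day 25. Without overlap, 10 of the 21 lay above and 5 below wild type at 2 months, where 26.6% and 17.3% of all genes did. At day 25 these counts were 7 and 5, where the shares were 26.4% and 19.5%. No test set the regulators apart from these shares. Myc, a transcription factor that drives glycolytic genes, was 235 and 488 in dKO at 2 months and 547 and 711 in dKO at day 25, against 1425 and 1102 in wild type. The groups were in order with no overlap, and the 2-month log2 difference was -1.88 ± 0.39 (SE), adjusted p = 0.242 in limma. Prkaa2, a catalytic subunit of the energy sensor AMPK, was 249 and 197 in dKO at 2 months and 213 and 188 in dKO at day 25, against 91 and 136 in wild type. Txnip, which restrains glucose uptake, was 8783 and 6433 in dKO at 2 months and 5017 and 5438 in dKO at day 25, against 4496 and 4907 in wild type. Mxi1, a MYC antagonist reported as a FOXO target and listed here with the hypoxia response, was 366 and 292 in dKO at 2 months and 371 and 359 in dKO at day 25, against 607 and 603 in wild type. Its log2 difference was -0.89 ± 0.14 at 2 months, adjusted p = 0.185, and -0.73 ± 0.14 at day 25, adjusted p = 0.474. Both Myc and its antagonist had lower dKO values on every array. Of the 15 measured hypoxia response genes, 1 was higher and 2 lower at 2 months by the unadjusted rule, and 1 and 1 at day 25. The higher gene at 2 months was Adm, at 247 and 148 in dKO at 2 months and 95 and 101 in dKO at day 25, against 72 and 54 in wild type. At day 25 it was Car9, at 315 and 411 in that dKO group and 141 and 225 in dKO at 2 months, against 217 and 140.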

How the data were processed

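Biotin-labelled cRNA of granulosa cells was read on Affymetrix arrays, 1 for each of 6 samples, per the labels. The authors deposited linear probe-set intensity as whole numbers, with affy and RMA named in the submitters' processing notes and their versions, the rounding and the build not given in the sources used here. RMA gives arrays a common distribution, which hides a shift shared by most genes. The 64 AFFX controls among 45101 probe sets stayed out of the fit. In R 4.3.3, limma 3.58.1 fitted a mean per group to log2(intensity + 1), leaving 3 residual degrees of freedom, and moderated 2-sided tests were made for 3 contrasts. Folds refer to intensity + 1 and so come out too small for dim genes. Benjamini-Hochberg adjustment ran over 45037 probe sets with a threshold of 0.05, and the script was tested on simulated data.

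The annotation gave 1 symbol for 34945 probe sets, several for 932 and none for 9160. Members, gene lists and tests were chosen with earlier results of these data known. By the rule for named genes, per-array values are given for members at an unadjusted p under 0.05 and for a set of members listed by name. The rule also took up to 4 genes of smallest p in each related list and contrast. Those printed were a further choice among them, and Mlxip, Fbp1 and Bpgm are among those left out. Aldoa, Pgk1, Pfkm, Pdk1, Pdhb and Pfkfb2 were added after their values were seen. Deviations of same-numbered replicates correlated at -0.159, -0.208 and 0.0569 between pairs of groups, so the numbers were not taken as pairs. Nothing in the labels says that the 2 arrays of a group hold different animals, so the p-values reflect sample-to-sample spread that could be purely technical. With 2 arrays against 2, an exact permutation test allows no p under 0.333. The number of arrays limits the precision. Alternatives covered scaling, pseudocount, dim probe sets, prior, array weights, replicate block, probe-set choice and single arrays left out.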

Additional observations from a re-analysis of the deposited data

How the results depend on the processing

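No member passed the adjusted threshold of 0.05 in limma under any alternative run, so these counts stayed at 0. The threshold of 0.1 was counted in the main fit alone, where no member passed it either. Pdha1 and Pfkfb4 at 2 months against wild type fell under 0.1 in at least 1 alternative run. At an unadjusted p under 0.05 the counts of members moved by over 1.5 times as follows. For dKO against wild type at day 25 (2 higher, 2 lower), the counts of lower members were 1 with dim probe sets left out, 1 with the replicate block, 1 with the crossed replicate block and 1 when the probe sets of each gene were averaged. The counts of higher members there were 1 with the replicate block and 0 when they were averaged. For dKO at 2 months against wild type (6 higher, 2 lower), lower members numbered 1 with dim probe sets left out, with the intensity trend and robust prior, with the replicate block and with averaged probe sets. Between the dKO ages (1 higher, 0 lower), higher members numbered 0 with array weights, with the crossed replicate block and with the fit of the 4 arrays compared, and lower members 1 with the crossed replicate block. The crossed pairing was chosen after seeing the data, and the numbers mark no known pairs. Smaller moves were 3 higher at day 25 with array weights, the crossed replicate block and the 4-array fit, and at 2 months against wild type 5 higher with array weights, the replicate block and averaged probe sets and 4 with the crossed replicate block. Leaving out single arrays gave 0 to 3 higher and 1 to 2 lower for dKO at day 25 against wild type, 1 to 7 and 0 to 4 at 2 months against wild type, and 0 to 6 and 0 to 2 between the ages, with medians from -0.13 to 0.17, from -0.18 to 0.15 and from -0.08 to 0.13. A lone array is then assumed to vary like the other groups, and fewer arrays enter the fit. The log2 difference of Ldhb at 2 months against wild type ran from -0.63 to 0.081 without single arrays, with 0.0035 without wild-type replicate 1 and 0.081 without dKO 2-month replicate 1, and that of Ldha between the ages from -0.60 to 0.044, that value without dKO 2-month replicate 1; the cause was not tested. The other member differences recomputed kept their sign under every alternative run. Centring and repeated quantile normalization moved the median of all genes by under 0.1, and signal near background limits Eno2 and Slc16a3.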
